A study of Mus musculus with 8 samples.

Results

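Immediate early genes are genes whose transcription starts within minutes of a stimulus without any new protein being made first. The 10 genes described here, Fos, Fosb, Jun, Junb, Egr1, Egr2, Nr4a1, Atf3, Ier2 and Ier3, were picked by name as a check on how the tissue was handled before RNA was extracted, and the rule that picks them uses no measured value, though earlier results of these data were known when it was written. Each had 1 array row whose annotation gave its symbol alone, so the 10 rows stood for 10 of the 19310 genes with such a row. The RNA came from the visceral fat pad that lies along the epididymis (epididymal white adipose tissue) of male C57BL/6 mice aged 12 to 15 weeks on a standard diet in days of 12 h light and 12 h dark. There were 4 arrays labelled Rev-erb alpha KO and 4 arrays labelled WT, all from tissue taken at Zeitgeber time 10, which is 10 h after lights on. Rev-erb alpha is a nuclear receptor of the circadian clock that represses transcription, encoded by Nr1d1. The labels did not say how the knockout was made, in which cells it acts, or whether each replicate came from a separate mouse, so p-values cover only the spread among these arrays, which may in part be technical.

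The products of these genes are mostly transcription factors. Fos and Jun proteins pair through leucine zippers to form the factor AP-1, Egr proteins bind DNA through zinc fingers, and Nr4a1 is an orphan nuclear receptor. Growth factors reach their promoters through the serum response factor and its partners, and hormones that raise cyclic AMP reach them through the factor CREB. In fat they answer to feeding, insulin and adrenergic signals, and in dissected tissues also to stretch, cutting and time without blood flow, which is why they can serve as a record of handling.

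Values are log2 expression values as deposited, and differences are KO minus WT on that scale. Each difference comes with the standard error (SE) or the 95% confidence interval of limma, a linear model whose variances are moderated across all rows. A row was called at a Benjamini-Hochberg adjusted p under 0.05, adjusted over all 20748 rows with exactly 1 symbol. Array medians lay between 5.90 and 5.95 log2, and correlations across rows were 0.993 to 0.996 within KO arrays, 0.989 to 0.994 between KO and WT arrays and 0.994 to 0.996 within WT arrays. Nr1d1 itself read 9.56, 9.28, 8.90 and 8.80 log2 in KO arrays and 9.47, 9.11, 9.18 and 9.83 log2 in WT arrays (difference −0.26, SE 0.19, limma adjusted p = 0.479). The row's place relative to the deleted part is not given in the sources used here, so it does not check the genotypes, and KO and WT are used here as labelled. Arntl, a clock gene that Rev-erb alpha represses, was 3.61-fold higher in KO arrays (limma adjusted p = 3.20e-05). The 11 measured adipocyte markers averaged 11.8 log2 in each KO array and 11.8 to 11.9 log2 in WT arrays, and 8 measured markers of epididymis averaged 3.58 to 3.66 and 3.60 to 3.70 log2. The adipocyte average covers shifts of both signs. Lep alone was called, 0.75 log2 higher in KO arrays (limma adjusted p = 0.0068). Groups did not overlap for 4 of the 11, beside 15.3% of all rows. These were Lep and, with KO lower, Plin1 (−0.20 log2), Pparg (−0.26 log2) and Lipe (−0.15 log2).

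Of the 10 immediate early genes, Fos was called, slightly higher in KO arrays, and the other 9 were not. Averaged over the 10 genes, the arrays lay between 5.91 and 6.03 log2 in KO and between 5.81 and 6.06 log2 in WT, so the KO range fell inside the WT range. Over all tested rows 7.40% were called, 3.81% as higher and 3.59% as lower, so 1 of 10 is close to the background for so short a list. The median difference of the 10 genes was 0.05 log2, against −0.01 over all rows, and the median size of the difference without its sign was 0.10 log2, against 0.08 over all rows. Groups did not overlap in 1 of the 10 genes, Fos, and in 15.3% of all rows, with KO higher in 7.18% and lower in 8.16%. Probes differ in how strongly they bind, so levels are compared between arrays for 1 gene and not between genes, and no detection calls were used that would show which rows are above background.

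**Figure D1:**
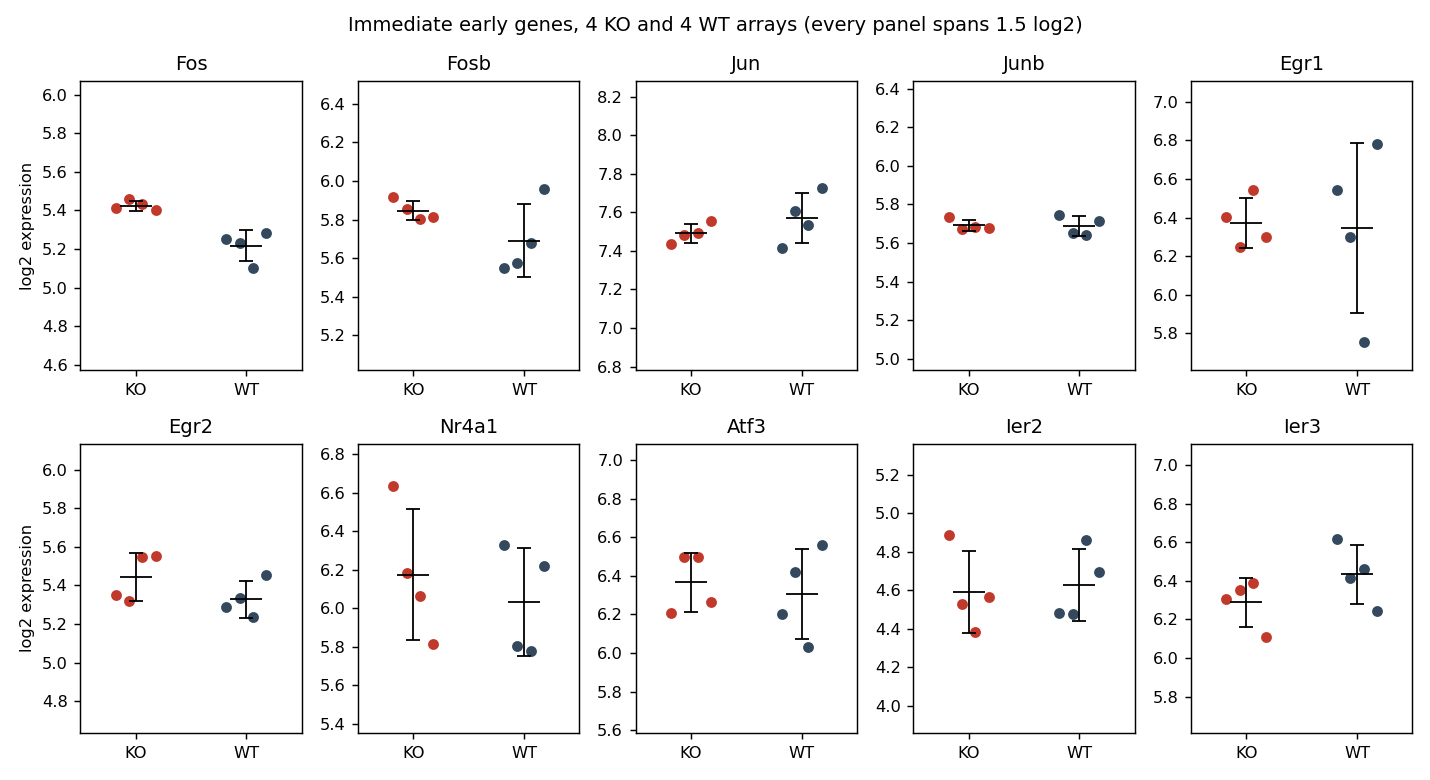
Log2 expression of each of the 10 immediate early genes (vertical axis, every panel spanning the same log2 width) in 4 KO arrays (left, red) and 4 WT arrays (right, dark blue), points in replicate order, with the mean (bar) and SD (whiskers). The groups part only for Fos, where KO arrays lie between 5.40 and 5.46 and WT arrays between 5.10 and 5.28, and Egr1 has its widest scatter in WT.

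Fos encodes the AP-1 subunit most widely used as a marker of recent stimulation. Its row (10397346) read 5.41, 5.46, 5.43 and 5.40 log2 in KO arrays, against 5.25, 5.23, 5.10 and 5.28 log2 in WT arrays. All KO arrays lay above all WT arrays, and the KO arrays lay within 0.06 log2 of each other. The means were 5.43 ± 0.026 in KO and 5.22 ± 0.080 in WT (SD, n = 4 each), a difference of 0.21 log2 (SE 0.055, 1.16-fold, limma adjusted p = 0.0454). The exact permutation test over arrays gave p = 0.0286, two-sided, the smallest value that 4 against 4 arrays allow. The 95% interval of the difference was 0.09 to 0.33 log2, so its upper end corresponded to a 1.26-fold level. The call was lost in 12 of 17 alternative fits, among them every fit with 1 array left out (limma adjusted p 0.0627 to 0.102), while the difference stayed above 0 in all 17. Markers of other cells also differed between the groups, beside 7.40% of all rows called. Of 9 progenitor and fibroblast markers 4 were higher and 0 lower (array means 8.91 to 9.08 log2 in KO and 8.46 to 8.81 log2 in WT). Of 8 smooth muscle and pericyte markers 2 were higher and 1 lower (7.56 to 7.87 log2 in KO and 7.42 to 7.63 log2 in WT), and of 10 endothelial markers 2 were higher and 0 lower (8.52 to 8.63 log2 in KO and 8.29 to 8.48 log2 in WT). Of 7 mesothelial markers 1 was higher and 0 lower (8.38 to 8.60 log2 in KO and 8.45 to 8.63 log2 in WT), with a median difference of −0.19 log2. Their part in the difference of Fos was not tested.

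The promoter of Fos is shown because Fos was the gene that passed. RefSeq's table for GRCm38.p6 gives the 250 bases before the start of transcription and the 50 bases from it, on the plus strand of chromosome 12 at chr12:85473640-85473939. Capitals mark TGACG, the core of the element that CREB and related factors bind, searched on both strands.
Fos: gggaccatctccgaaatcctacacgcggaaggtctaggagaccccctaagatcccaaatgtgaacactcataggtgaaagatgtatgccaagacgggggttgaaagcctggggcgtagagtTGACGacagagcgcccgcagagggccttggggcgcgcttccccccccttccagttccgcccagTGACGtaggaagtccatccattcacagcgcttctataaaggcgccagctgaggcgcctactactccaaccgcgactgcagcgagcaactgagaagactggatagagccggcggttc
The matches lay at −129 to −125 and at −66 to −62, counted from the start of transcription. TGACG was found in 20.8% of all 32851 promoter windows of the table.

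Fosb encodes a close relative of Fos that also dimerizes with Jun proteins, and it was not called. It read 5.92, 5.85, 5.80 and 5.81 log2 in KO arrays and 5.55, 5.58, 5.68 and 5.96 log2 in WT arrays. The KO arrays were all above WT arrays 1 to 3, and WT array 4 was above all of them. The difference was 0.16 log2 (95% interval −0.04 to 0.35, limma adjusted p = 0.333). Without WT array 4 it was 0.25 log2 (limma adjusted p = 0.0520). In the other fits with 1 array left out it was 0.11 to 0.17 log2 (limma adjusted p 0.384 to 0.568).

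Jun and Junb encode partners of Fos in AP-1, and neither passed. Jun read 7.43, 7.48, 7.49 and 7.56 log2 in KO arrays and 7.42, 7.61, 7.53 and 7.73 log2 in WT arrays, with all KO arrays inside the WT range. Its difference was −0.08 log2 (95% interval −0.23 to 0.07, limma adjusted p = 0.564). Junb, an AP-1 subunit that in many settings restrains Jun, read 5.73, 5.67, 5.68 and 5.68 log2 in KO arrays and 5.75, 5.65, 5.64 and 5.71 log2 in WT arrays. Every KO value of Junb also lay inside the WT range. Its difference was 0.00 log2 (SE 0.050, limma adjusted p = 0.971), with a 95% interval that corresponds to 0.930-fold to 1.08-fold, the narrowest of the 10 genes.

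Egr1 encodes a zinc finger factor induced by growth factors and mechanical stimuli, and its WT arrays differed from each other more than the groups did. It read 6.40, 6.25, 6.54 and 6.30 log2 in KO arrays, against 6.54, 6.30, 5.76 and 6.78 log2 in WT arrays. The WT values spanned 1.03 log2 and the KO values 0.30 log2, with KO inside WT. The difference was 0.03 log2 (95% interval −0.37 to 0.43, limma adjusted p = 0.954). It was −0.17 log2 without WT array 3 and 0.17 log2 without WT array 4, neither of which passed.

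Egr2, a relative of Egr1 with roles in early adipocyte differentiation, was not called. It read 5.35, 5.32, 5.55 and 5.55 log2 in KO arrays and 5.29, 5.33, 5.23 and 5.46 log2 in WT arrays. KO arrays 3 and 4 lay above every WT array, and KO arrays 1 and 2 lay inside the WT range. The difference was 0.11 log2 (95% interval −0.05 to 0.28, limma adjusted p = 0.422). With KO arrays 1 and 2 alone it was 0.01 log2, and with KO arrays 3 and 4 alone 0.22 log2 (limma adjusted p = 0.122).

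Nr4a1 encodes a nuclear receptor induced by adrenergic signals in fat and by stress in many tissues. It read 6.63, 6.18, 6.06 and 5.82 log2 in KO arrays, against 6.33, 5.80, 5.78 and 6.22 log2 in WT arrays. Only KO array 1 lay above the WT range, and both groups spread widely, over 0.82 log2 in KO and 0.55 log2 in WT. The difference was 0.14 log2 (95% interval −0.24 to 0.53, limma adjusted p = 0.704). It was −0.01 log2 without KO array 1.

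Atf3 encodes a factor of the CREB family that cell stress induces. It read 6.21, 6.50, 6.50 and 6.26 log2 in KO arrays and 6.20, 6.42, 6.03 and 6.56 log2 in WT arrays. All KO arrays lay inside the WT range. The difference was 0.06 log2 (95% interval −0.19 to 0.32, limma adjusted p = 0.812).

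Ier2, a nuclear protein gene induced early by growth factors, and Ier3, whose product acts on cell survival, had differences below 0 that did not pass. Ier2 read 4.89, 4.53, 4.38 and 4.57 log2 in KO arrays and 4.48, 4.48, 4.86 and 4.69 log2 in WT arrays (difference −0.04, SE 0.12, limma adjusted p = 0.900). KO array 1 was the highest of all 8 arrays and KO array 3 the lowest. Ier3 read 6.30, 6.35, 6.39 and 6.11 log2 in KO arrays and 6.62, 6.41, 6.46 and 6.24 log2 in WT arrays (difference −0.14, SE 0.088, limma adjusted p = 0.385). KO arrays 1 to 3 lay below WT arrays 1 to 3, while WT array 4 was lower than those 3 KO arrays.

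**Figure D2:**
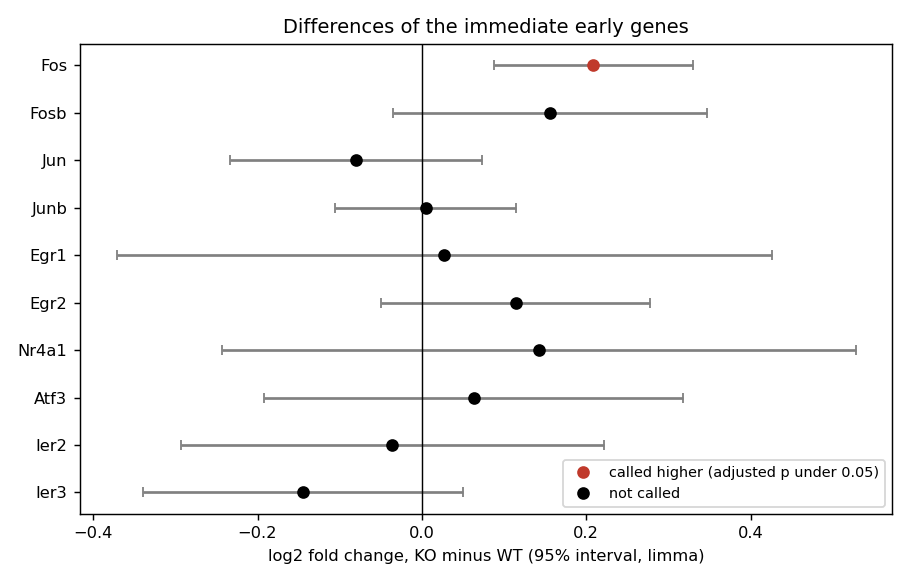
Difference between the mean of 4 KO arrays and the mean of 4 WT arrays (horizontal axis, log2, KO minus WT) for each immediate early gene, with 95% confidence intervals from limma. Only the interval of Fos (0.09 to 0.33) leaves out 0, and the highest upper end, that of Nr4a1, is 0.53.

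The 95% intervals differed in width from gene to gene. Their upper ends ran from 0.05 log2 for Ier3, 0.07 log2 for Jun and 0.11 log2 for Junb to 0.43 log2 for Egr1 and 0.53 log2 for Nr4a1. Their lower ends ran from −0.37 log2 for Egr1 to 0.09 log2 for Fos. Each interval is for 1 gene alone, and the ends are on the scale of the deposited values, for which no background level is known.

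RefSeq's table held promoter windows for 8 of the 10 genes, all but Egr1 and Ier2, with 12 windows in all because Egr2 has several starts. TGACG was found for 6 of the 8 genes, in 8 of their 12 windows, beside 20.8% of all windows. The windows of Egr2 are several for 1 gene, so shares of genes and of windows are different quantities. The sequences below are shown because they place the cyclic AMP response core beside Fos in genes that did not pass. Capitals mark TGACG, or CGTCA where it lies on the other strand. In Egr2 the capitals of CCATATATGG mark a CArG box, the element of the serum response factor.
Fosb: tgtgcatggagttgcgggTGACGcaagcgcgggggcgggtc
Junb: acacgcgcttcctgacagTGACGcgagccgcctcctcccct
Atf3: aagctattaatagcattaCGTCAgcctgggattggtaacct
Nr4a1: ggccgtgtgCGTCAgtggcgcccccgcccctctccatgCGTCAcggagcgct
Egr2: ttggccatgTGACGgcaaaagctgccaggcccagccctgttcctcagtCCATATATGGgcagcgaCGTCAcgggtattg
On GRCm38.p6 these stretches lie at chr7:19310083-19310123 (minus strand), chr8:84978832-84978872 (minus strand), chr1:191183318-191183358 (minus strand), chr15:101266768-101266819 (plus strand) and chr10:67537749-67537827 (plus strand), in the order printed. A CArG box was found for 1 of the 8 genes and in 1.63% of all windows. Bases outside the windows were not searched for any element. The counts here therefore do not show whether a gene has a site farther from its start. The full palindrome TGACGTCA, which contains TGACG on both strands, was found for 0 of the 8 genes and in 1.79% of all windows, and the AP-1 element TGANTCA for 0 of the 8 and in 7.81%. AGGTCA, the core of the element that Rev-erb alpha binds, was found for 0 of the 8 genes and in 16.3% of all windows, which says only that these letters are not in these windows.

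WT arrays 3 and 4 were most often the lowest or the highest of their group across the immediate early genes. Among the 4 WT arrays, array 3 was the lowest for 6 of the 10 genes, Fos, Junb, Egr1, Egr2, Nr4a1 and Atf3, and array 4 was the highest for 6, Fos, Fosb, Jun, Egr1, Egr2 and Atf3. Over all rows WT array 3 was the lowest WT array in 25.9% and WT array 4 the highest in 23.7%. Over the 55 other early genes described further on, WT array 3 was the lowest WT array in 30.9%, WT array 4 the highest in 38.2% and WT array 1 the highest in 30.9%. No KO array was the highest for more than 4 genes, which was KO array 1, or the lowest for more than 3. Averaged over the 10 genes, WT array 3 lay 0.12 log2 below and WT array 4 0.14 log2 above the mean of its group, while the largest such deviation of a KO array was −0.064 log2, in array 4.

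**Figure D3:**
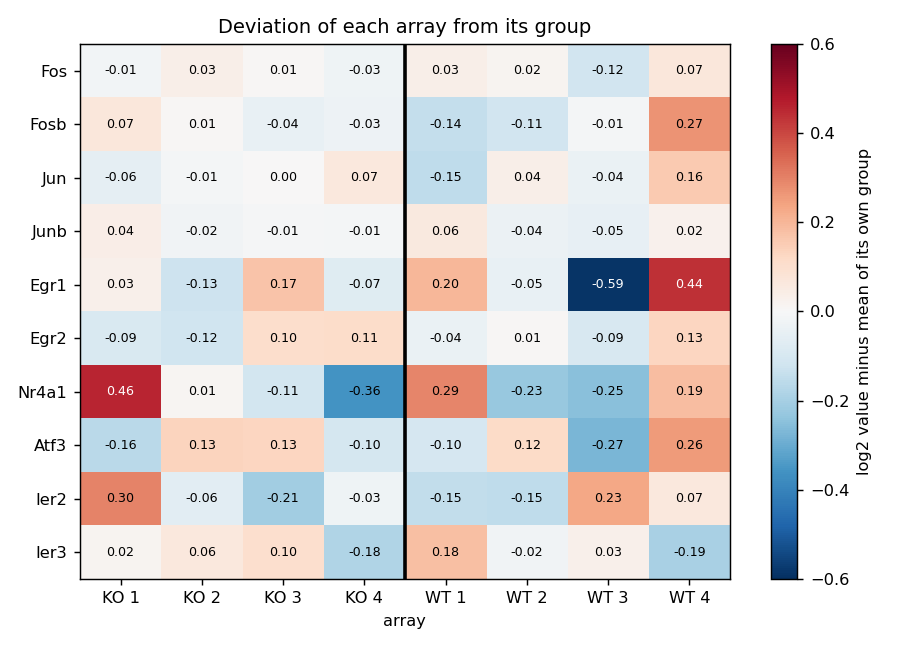
Deviation of each of 8 arrays (columns, KO left of the line and WT right of it) from the mean of its own group, in log2, for each immediate early gene (rows). WT array 3 is blue for Fos, Egr1, Egr2, Nr4a1 and Atf3, and WT array 4 is red for most genes. WT array 1 is the lowest WT array for Fosb and Jun, and Ier2 and Ier3 have WT array 3 above WT array 4.

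Not all of the 10 genes had WT array 3 lowest and WT array 4 highest. WT array 1 was the lowest WT array for Fosb and Jun and the highest for Junb, Nr4a1 and Ier3. WT array 3 was the highest WT array for Ier2, and WT array 4 was the lowest WT array for Ier3. The SD within WT was above the SD within KO for 7 of the 10 genes, against 46.3% of all rows. The SD pooled over both groups was above the median of all rows, 0.099 log2, for 7 of the 10 genes. Over all 10 genes it ran from 0.041 for Junb to 0.325 for Egr1. Fos, the called gene, lay below that median at 0.059, as did Jun and Junb. WT array 3 was also the lowest WT array for 4 of 11 marker lists. WT array 4 was the lowest for 4 others, the mesothelial, neutrophil and mast cell, epididymis and red cell markers. The 9 macrophage markers, of which 0 were called higher and 1 lower, averaged 7.48 to 7.80 log2 in KO arrays, 7.34 log2 in WT array 3 and 7.54 to 7.74 log2 in the other WT arrays. The 9 progenitor and fibroblast markers averaged 8.46 log2 in WT array 3 and 8.67 to 8.81 log2 in the other WT arrays. The 8 smooth muscle and pericyte markers averaged 7.42 log2 in WT array 3 and 7.51 to 7.63 log2 in the other WT arrays, and the 9 lymphocyte markers, of which 0 were called, 4.65 log2 and 4.80 to 4.83 log2. The highest WT array was array 2 for the macrophage and the smooth muscle and pericyte markers. It was array 1 for the progenitor and fibroblast and the lymphocyte markers, so WT array 4 was the highest in none of these lists. The part of these markers in the pattern of the early genes was not tested. In a bulk sample, fewer cells of a type and less RNA per cell cannot be told apart.

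The other genes of the same families were not called. Of 15 measured genes for AP-1, Egr, Nr4a and small Maf proteins and their partners, 0 passed in limma (3 of the 15 had an unadjusted p under 0.05, beside 21.9% of all rows, and the lowest adjusted p was 0.111), with a median difference of 0.03 log2. The AP-1 gene Fosl2 had the largest difference, 0.28 log2 (SE 0.096, limma adjusted p = 0.111), followed by those of the small Maf gene Mafk (0.19, adjusted p = 0.172) and of Jdp2, a repressor that pairs with Jun (0.17, adjusted p = 0.192). Maff, another small Maf gene, differed by 0.16 log2 (limma adjusted p = 0.240).

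Among 40 other genes of the early response, 5 were higher in KO arrays, 1 was lower and 34 were not called. The share called, 15.0%, stood beside 7.40% of all rows, and the median difference was 0.03 log2. Ccn2, a secreted matrix protein that also answers to mechanical stretch, read 8.55, 8.83, 8.78 and 8.79 log2 in KO arrays and 7.81, 7.92, 7.91 and 7.77 log2 in WT arrays. The groups did not overlap, and the difference was 0.88 log2 (SE 0.071, limma adjusted p = 0.000105). Ptgs2, the inducible cyclooxygenase, read 5.63, 5.84, 5.89 and 5.66 log2 in KO arrays and 5.35, 5.35, 5.31 and 5.31 log2 in WT arrays (difference 0.42, SE 0.068, limma adjusted p = 0.00495). Sik1, a kinase gene induced by cyclic AMP, read 7.91, 7.83, 7.49 and 7.66 log2 in KO arrays and 7.33, 7.32, 7.23 and 7.16 log2 in WT arrays (difference 0.47, SE 0.090, limma adjusted p = 0.0115). For Ptgs2 and Sik1, too, every KO array lay above every WT array. These 3 genes passed in each of 17 alternative fits. Some markers of stromal and vascular cells also moved. The fibroblast genes Col1a1 and Mfap5 were higher by 0.71 and 0.84 log2 and the endothelial gene Cldn5 by 0.99 log2. The mural cell genes Acta2 and Rgs5 were higher by 0.89 and 0.66 log2, while Tagln, another smooth muscle gene, fell by 0.29 log2. All were called in limma, but most endothelial markers and others were not. Called were 4 of 9 progenitor and fibroblast markers and 2 of 10 endothelial markers, all higher. Of 8 smooth muscle and pericyte markers 2 were called higher and 1 lower. Dcn (−0.14 log2), Kdr (−0.02 log2) and Myh11 (−0.21 log2) were among those not called. The part of these markers in the differences of the early response genes was not tested.

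Dusp1, Csrnp1 and Klf10 were called less firmly. Dusp1, a phosphatase that switches off MAP kinases, read 9.44, 9.08, 9.44 and 9.34 log2 in KO arrays and 8.87, 8.72, 8.37 and 9.01 log2 in WT arrays (difference 0.59, SE 0.13, limma adjusted p = 0.0232). For Dusp1, WT array 3 was the lowest WT array and WT array 4 the highest, as for Fos, Egr1, Egr2 and Atf3. The other called genes of this list did not share that order. Ccn2, Sik1 and Ptgs2 had WT array 4 as the lowest WT array, and Klf10 had WT array 3 as the highest. Csrnp1 had WT array 3 as the lowest and WT array 1 as the highest. Klf10, an early gene of TGF-beta signalling that the clock also drives, read 6.84, 7.09, 6.99 and 6.79 log2 in KO arrays and 7.22, 7.47, 7.85 and 7.49 log2 in WT arrays, and fell by 0.58 log2 (SE 0.12, limma adjusted p = 0.0160). Csrnp1, a nuclear protein gene, read 5.97, 5.81, 5.46 and 5.72 log2 in KO arrays and 5.47, 5.40, 5.29 and 5.34 log2 in WT arrays (difference 0.37, SE 0.096, limma adjusted p = 0.0453), with KO array 3 inside the WT range. With 1 array left out, the call held in 4 of 8 fits for Dusp1, in 7 of 8 for Klf10, which lost it without KO array 4, and in 1 of 8 for Csrnp1.

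**Figure D4:**
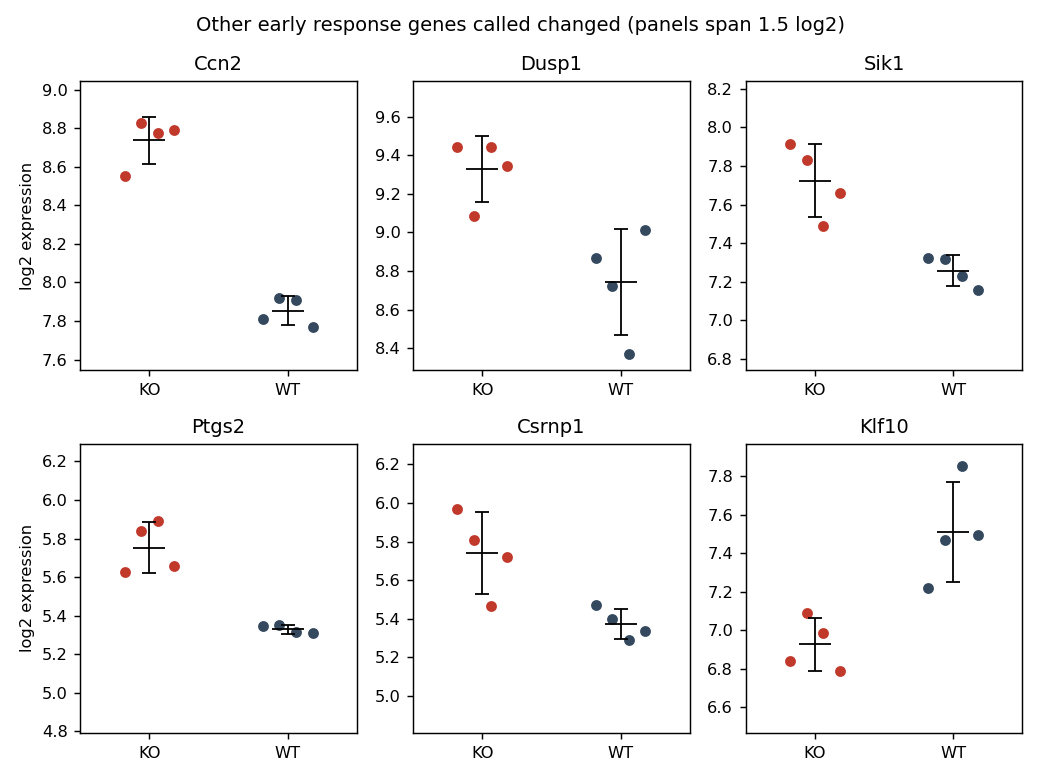
Log2 expression (vertical axis, every panel spanning the same log2 width) of the 6 other early response genes called between 4 KO arrays (left, red) and 4 WT arrays (right, dark blue), with mean (bar) and SD (whiskers). KO arrays lie above WT arrays for Ccn2, Dusp1, Sik1 and Ptgs2 and below them for Klf10, and overlap them for Csrnp1.

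Genes that carry signals to these promoters were not called. Of 21 measured genes for the serum response factor, its partners, CREB, its coactivators and MAP kinases, 0 passed in limma (3, or 14.3%, had an unadjusted p under 0.05, beside 21.9% of all rows), and the median difference was −0.03 log2. The CREB coactivator gene Crtc3 differed by 0.22 log2 (limma adjusted p = 0.0824), and Creb1 and the serum response partner gene Elk1 each by −0.12 log2 (limma adjusted p = 0.211 for both). Crtc2, another coactivator gene, differed by −0.12 log2 (limma adjusted p = 0.338).

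Of 10 measured heat shock genes, a response to heat and protein damage, 1 was called, close to the 7.40% of all rows for so short a list. Hspb1, a small heat shock protein, read 9.80, 10.06, 10.11 and 9.94 log2 in KO arrays and 9.63, 9.67, 9.77 and 9.55 log2 in WT arrays, 0.32 log2 higher in KO (SE 0.077, limma adjusted p = 0.0314). The groups did not overlap, and the call held in 2 of 8 fits with 1 array left out. Dnaja1 differed by −0.23 log2 (limma adjusted p = 0.0544), Dnajb1 by −0.24 log2 (adjusted p = 0.155) and Hsph1 by 0.23 log2 (adjusted p = 0.195), so the list held differences of both signs with a median of −0.05 log2.

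**Figure D5:**
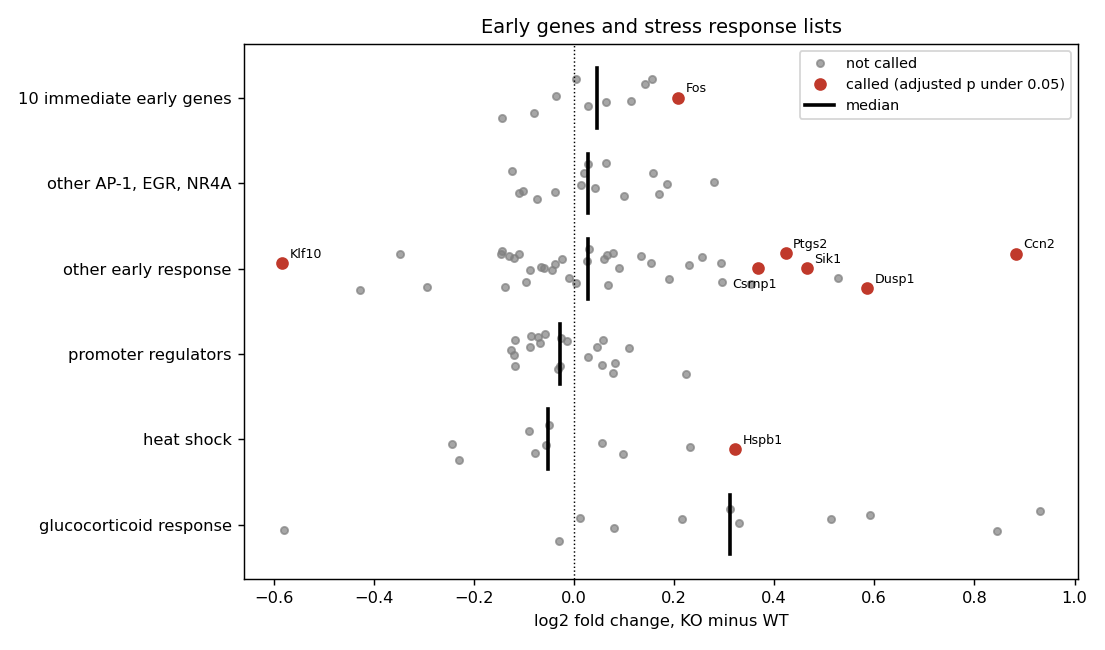
Log2 fold change, KO minus WT (horizontal axis), of every measured gene of 6 lists (rows, with points spread vertically for legibility), called genes in red and medians as black bars. The 10 immediate early genes lie between −0.14 and 0.21, and the other early response genes between −0.58 and 0.88.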

How the data were processed

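RNA of 8 samples, 4 labelled Rev-erb alpha KO and 4 labelled WT, was hybridised to Affymetrix whole-transcript arrays. The authors deposited log2 expression values, 1 per row and array, made with affy according to the submitters' processing notes. Their background correction, normalization, filters and build are not given in the sources used here. The values ran from 2.09 to 13.4, from which the log2 scale was inferred. Of 23346 rows, the platform annotation gives exactly 1 symbol to 20748, which were tested. The 10 members had 1 row each; for other genes the brightest row was used.

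The difference KO minus WT came from limma 3.58.1 under R 4.3.3 (lmFit, then eBayes, 2 groups, no covariate, no filter), with Benjamini-Hochberg adjustment over all tested rows. The fit was also tested on simulated data. There it called 19.4% of changes of 0.25 log2, 76.1% of 0.5 log2 and 100% of 1 log2, so small changes were mostly missed. The simulation had 137 calls and the data 1536, so these shares need not hold for the data. Promoters came from RefSeq's GRCm38.p6 table and were searched on both strands. Alternatives were other scalings, filters, variance models, array weights, a replicate block and subsets of arrays. All members were named; from other lists, every called gene and up to 4 with the smallest p. Members and lists were chosen with earlier results of these data known. Precision is limited by 4 arrays per group.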

Additional observations from a re-analysis of the deposited data

Results flagged for a closer look

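Arntl in KO array 2 read 6.65 log2, apart from the other KO arrays, which lay between 6.94 and 6.95 log2; it still lay above every WT array (4.80 to 5.19). It was picked out because the gap to its nearest neighbour was 0.965 of the range of the 4 KO arrays. Of 48 groups of 4 arrays looked at in this way, over the 10 immediate early genes, 9 other genes followed through the alternatives and the 5 genes most like the immediate early genes in pattern, 1 was picked out, and chance alone picks about 1 in 20. None of the 20 groups of the immediate early genes was picked out, WT array 3 for Egr1 included.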

How the results depend on the processing

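The number of called immediate early genes was 1 or 0 under every alternative. It stayed at 1 with quantile normalization, median centring, the dimmest 33.3% of rows left out (which also removed Ier2), all rows tested and array weights. An adjusted p under 0.10 (12.3% of all rows called) also gave 1, but a looser threshold cannot lose a call. Averaging the rows of each gene could change nothing, because each of the 10 genes had 1 row. The number was 0 with trend and robust eBayes, with KO arrays 1 and 2 only and with KO arrays 3 and 4 only. It was also 0 in every fit with 1 array left out. For Fos the limma adjusted p was 0.0303 to 0.0491 where it passed and 0.0602 to 0.159 where it did not. The labels do not say whether the replicate numbers pair the samples. Correlations of same-numbered deviations were −0.067 to 0.134, with no comparison to differently numbered arrays, so they do not settle it. With the replicate block 0 immediate early genes, 6 of 55 other early genes and 1105 rows were called. Over all rows 1536 were called, 913 to 1418 with 1 array left out (972 without WT array 3, 1004 without WT array 4, 913 without KO array 4), 2552 at an adjusted p under 0.10, 701 with KO arrays 1 and 2 only and 1822 with KO arrays 3 and 4 only. Other early genes called numbered 3 to 6 with 1 array left out, 3 without KO array 4.

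Signs changed for 5 of the 10 genes, none of them called: Junb without WT array 2 (−0.0075), WT array 3 (−0.011) or KO array 1 (−0.0093) and with KO arrays 3 and 4 only (−0.0055), Egr1 with array weights (−0.024), without WT array 3 (−0.17) or KO array 3 (−0.030) and with KO arrays 1 and 2 only (−0.021), Nr4a1 without KO array 1 (−0.010) and with KO arrays 3 and 4 only (−0.092), Atf3 without WT array 3 (−0.028), and Ier2 without WT array 3 (0.042) or KO array 3 (0.033) and with KO arrays 1 and 2 only (0.081). With single arrays left out these 5 ranged from −0.011 to 0.025 for Junb, −0.17 to 0.17 for Egr1, −0.010 to 0.26 for Nr4a1, −0.028 to 0.15 for Atf3 and −0.13 to 0.042 for Ier2. Nr1d1 was at 0.027 with KO arrays 1 and 2 only. The cause of these changes was not tested. The split of KO arrays was chosen in an earlier look at these data. No detection calls were used, so the smallest change a dim row could show is unknown.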

Other observations

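Genes of the acute glucocorticoid response, which stress before collection can raise through corticosterone, differed more widely than the immediate early genes, and none was called in limma (4 of 11, or 36.4%, had an unadjusted p under 0.05, beside 21.9% of all rows). Of the 11 measured genes 9 had a difference above 0, or 81.8% beside 48.0% of all rows, with a median of 0.31 log2, against −0.01 over all rows. Pdk4, a kinase that holds back glucose oxidation, read 9.33, 9.49, 8.14 and 8.15 log2 in KO arrays and 7.56, 8.12, 8.07 and 7.64 log2 in WT arrays (difference 0.93, SE 0.30, limma adjusted p = 0.0943). KO arrays 1 and 2 stood above KO arrays 3 and 4, and all 4 above WT. Angptl4, an inhibitor of lipoprotein lipase, read 10.23, 10.60, 9.54 and 9.75 log2 in KO arrays and 8.80, 9.15, 9.01 and 9.76 log2 in WT arrays (difference 0.85, SE 0.24, limma adjusted p = 0.0635). Here too KO arrays 1 and 2 were the highest, and WT array 4 reached KO arrays 3 and 4. Tsc22d3, which encodes the glucocorticoid-induced leucine zipper protein, differed by 0.59 log2 (limma adjusted p = 0.0976) and the metallothionein gene Mt2 by 0.51 log2 (limma adjusted p = 0.0620). Pdk4, Angptl4, Tsc22d3 and Mt2 were named because they had the smallest p of the list. Fkbp5, a standard glucocorticoid target named here after its value was seen, lay the other way, at −0.58 log2 (SE 0.36, limma adjusted p = 0.392). Per1, Klf9 and Zbtb16 of the same list, also named after their values were seen, differed by −0.03, 0.01 and 0.08 log2. The mean over the 11 genes was 9.45, 9.63, 8.73 and 9.19 log2 in KO arrays and 8.68, 9.18, 9.06 and 8.92 log2 in WT arrays, an order unlike that of the immediate early genes, whose mean was highest in WT array 4 and lowest in WT array 3.

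Of 18405 genes searched, those whose deviations from the group means over the 8 arrays were most like the mean deviation of the 10 immediate early genes were Zfp867 (Pearson r 0.991), Zmym4 (0.987), Utp25 (0.968), Sh2d2a (0.966) and Ap1g2 (0.965). None of the 5 is in the early gene lists used here or was called between KO and WT. With 8 arrays and so many genes searched, values of this size are a description of these arrays only.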
